A study of Caenorhabditis elegans with 14 samples.

Results

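The forkhead genes of *C. elegans* examined here are *fkh-2*, *fkh-3*, *fkh-4*, *fkh-5*, *fkh-7*, *fkh-8*, *fkh-9*, *fkh-10*, *pha-4* and *unc-130*. They were chosen by name, with earlier results of these data known, so shares of all genes are given beside them for scale only. Another 5 forkhead genes outside this set had values and are given further below. Of the 10 genes of the set, 9 had values in both strains, among 12483 genes listed in all, and *fkh-8* was listed in neither. The RNA came from homogenates of whole hermaphrodites on day 6 of adulthood, either wild-type worms (strain N2) or polyQ35-YFP worms (strain AM140), in which a polyglutamine stretch fused to YFP is driven by the body wall muscle promoter of *unc-54*. Both strains were fed HT115 bacteria carrying the empty vector (EV) or the *anc-1* RNAi construct, on plates from which progeny were washed off daily. There were 3 EV and 3 *anc-1* RNAi samples of wild-type worms, and 4 EV and 4 *anc-1* RNAi samples of polyQ35-YFP worms. The comparison asks which transcripts change when ANC-1, a protein of the outer nuclear membrane that tethers nuclei to the cytoskeleton, is knocked down.

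Forkhead proteins are transcription factors that bind DNA through a winged-helix domain, and in many animals they set organ and cell identity during development. PHA-4, the FoxA factor, specifies the cells of the worm pharynx and is needed in adults for the long life span under dietary restriction. UNC-130 acts in cell migration and axon guidance, where it represses *unc-129*, a gene of the TGF-β family.

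Each value is a normalized read count, which is the number of reads on a gene divided by the size factor of its sample. Fold changes are log2 differences of (value + 1) between *anc-1* RNAi and EV, a scale that understates the change of genes with low counts. A gene was called when its Benjamini-Hochberg adjusted p from limma, over all genes of its strain, was below 0.05. The samples held 4934531 to 11563506 reads, and reads per gene are not independent molecules, since molecular identifiers were not used. The *anc-1* transcript, the target of the RNAi, fell by 2.64 in wild-type (limma adjusted p = 2.99e-07) and by 3.24 in polyQ35-YFP worms (limma adjusted p = 4.80e-05) on the log2 scale. In polyQ35-YFP worms, the fourth EV sample and, less far, the fourth *anc-1* RNAi sample stood off from the remaining 6 on the first principal component (32.9% of the variance), so values without them are given where they differ. In RNA of whole worms, fewer cells of a type and less RNA per cell cannot be told apart.

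In wild-type worms 3 of the 9 forkhead genes fell (*fkh-4*, *fkh-3* and *fkh-7*), against 6.13% of all 12061 genes tested. One gene, *unc-130*, rose, against 7.5% of all genes. In polyQ35-YFP worms only *fkh-4* was called, downwards, against 1.47% of all 12173 genes, and 0 members were called upwards, against 0.772%. At an unadjusted p below 0.05, also 0 members were higher in polyQ35-YFP worms, against 7.44% of all genes, and edgeR and DESeq2 each called 0 upwards, against 0.657% and 1.89%. With the replicate number as a block, limma called 3 members down in polyQ35-YFP worms, the same 3 genes as in wild-type worms, against 4.3% of all genes. DESeq2 called these 3 genes down in both strains, against 6.76% of all genes for wild-type and 3.7% for polyQ35-YFP worms, and it called 0 upwards in wild-type worms, against 7.88%. The median log2 fold change of the 9 members was -0.13 for wild-type and -0.45 for polyQ35-YFP worms, beside medians of 0.00 and 0.03 over all genes. The plot of all responses shows them side by side.

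**Figure D1:**
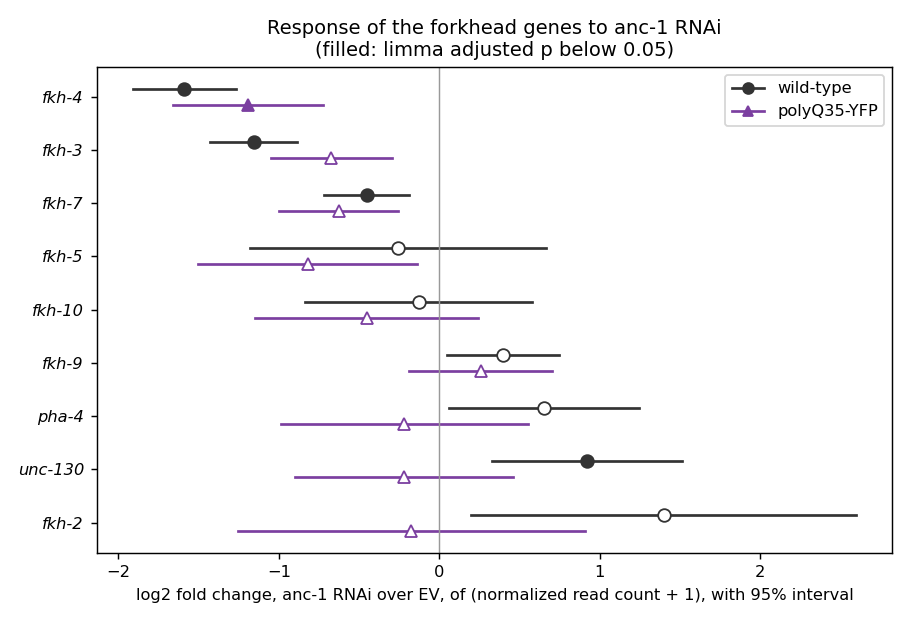
Log2 fold change, *anc-1* RNAi over EV, of (normalized read count + 1) for the 9 forkhead genes listed. Points are the limma estimates in wild-type (circles, 3 against 3 samples) and polyQ35-YFP worms (triangles, 4 against 4), bars are 95% intervals, and filled points passed an adjusted p of 0.05. The estimates of *fkh-4*, *fkh-3* and *fkh-7* lie below 0 in both strains, while those of *unc-130*, *pha-4* and *fkh-2* lie above 0 in wild-type and below 0 in polyQ35-YFP worms.

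The gene with the lowest fold change was *fkh-4*. It lies on the minus strand of chromosome X (13427109 to 13428849, WBcel235), and the GO terms deposited for it go no further than DNA binding, transcription, differentiation and morphogenesis. In wild-type worms its normalized read counts were 519, 652 and 666 under EV and 188, 173 and 253 under *anc-1* RNAi. The highest treated sample was below every EV sample by a wide margin. The mean went from 612 ± 81.5 (SD, n = 3) to 204 ± 42.4 (SD, n = 3), which is 33.4% of EV. The log2 fold change was -1.59 (SE 0.15, limma adjusted p = 5.09e-06), and the call held in each of the 6 fits that left out a sample.

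In polyQ35-YFP worms *fkh-4* was 516, 365, 719 and 332 under EV and 196, 234, 197 and 181 under *anc-1* RNAi. Again the groups did not overlap, and the spread was larger under EV (483 ± 177, SD, n = 4) than under RNAi (202 ± 22.7, SD, n = 4). On the log2 scale the change was -1.19 (SE 0.22, limma adjusted p = 0.0146). The call rested on single samples to some degree, since the adjusted p from limma was 0.0556 when *anc-1* RNAi replicate 1 was left out and 0.0501 when replicate 3 of that group was, at a fold change of -1.18 in both fits. Without both samples numbered 4 it was 0.00174, at a fold change of -1.30.

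Its neighbour *fkh-3* lies 3681 bases from *fkh-4* on the same strand (X, 13421822 to 13423427), with 0 protein-coding genes between them, and carries the same general GO terms. In wild-type worms it was 432, 436 and 382 under EV and 178, 190 and 190 under *anc-1* RNAi. All treated samples were below all EV samples, and the samples of a group were close together (417 ± 30.3 against 186 ± 6.72, SD, n = 3 each). This is a log2 fold change of -1.16 (SE 0.13, limma adjusted p = 1.36e-05), and it was called in all 6 fits that left out a sample.

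In polyQ35-YFP worms *fkh-3* was 372, 344, 453 and 262 under EV and 248, 200, 205 and 228 under *anc-1* RNAi. The groups did not overlap, although the lowest EV sample, replicate 4, was near the highest treated one. A change of -0.67 (SE 0.18) on the log2 scale was estimated and did not pass the test (limma adjusted p = 0.0654). It was called with the replicate block (limma adjusted p = 0.0138), by DESeq2 (adjusted p = 0.0105) and without EV replicate 4 (-0.81, limma adjusted p = 0.00457).

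The gene *fkh-7* lies on chromosome IV (5584661 to 5610353, plus strand) and has only general GO terms as well. In wild-type worms it was 445, 406 and 423 under EV and 334, 276 and 323 under *anc-1* RNAi. The groups did not overlap, but the change was smaller than for *fkh-4* and *fkh-3*, to 73.2% of EV. This gave a log2 fold change of -0.45 (SE 0.13, limma adjusted p = 0.0219). Only 2 of the 6 fits that left out a sample kept the call, and the adjusted p from limma ranged from 0.0285 to 0.0757 over them. It was lost without any 1 of the EV replicates and without *anc-1* RNAi replicate 2.

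The polyQ35-YFP worms had *fkh-7* counts of 446, 472, 572 and 419 under EV and 368, 363, 279 and 237 under *anc-1* RNAi. The groups again did not overlap, and the mean was 65.3% of EV. The log2 fold change of -0.63 (SE 0.17) did not pass the test (limma adjusted p = 0.0794). It passed with the replicate block (limma adjusted p = 0.0139), with DESeq2 (adjusted p = 0.0261), without EV replicate 4 (limma adjusted p = 0.0253) and without both samples numbered 4 (limma adjusted p = 0.0453). Without EV replicate 4, 3 members were called down, against 4.39% of all genes, and without both samples numbered 4 also 3, against 3.8%.

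**Figure D2:**
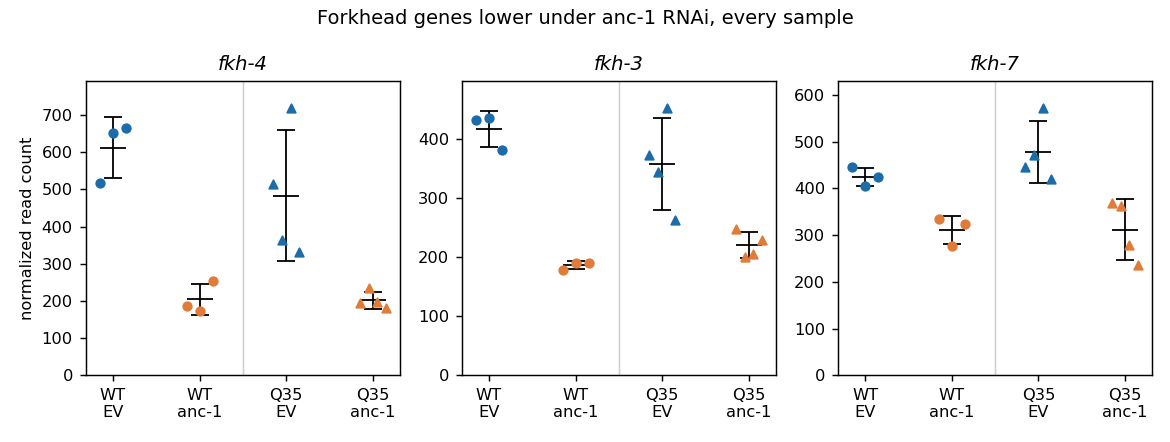
Normalized read counts (y axis) of *fkh-4*, *fkh-3* and *fkh-7* in every sample of wild-type (WT, circles) and polyQ35-YFP worms (Q35, triangles) under EV and *anc-1* RNAi, with the mean and SD of each group. The strains were normalized separately and are divided by a line. In all 3 genes and both strains every treated sample lies below every EV sample of its strain.

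By the plain measure of groups that do not overlap, 3 members were lower in both strains, against 15.8% of all genes for wild-type and 5.94% for polyQ35-YFP worms. They were *fkh-4*, *fkh-3* and *fkh-7*. A further 2 members were higher without overlap in wild-type worms, *unc-130* and *fkh-9*, against 15.8% of all genes, and 0 in polyQ35-YFP worms, against 3.39%.

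The pair *fkh-4* and *fkh-3* was also compared within each sample, where the size factor cancels out. In wild-type worms the ratio of *fkh-4* to *fkh-3* was 1.20 to 1.75 in EV samples and 0.911 to 1.33 in treated samples. For the polyQ35-YFP strain it lay between 1.06 and 1.59 with EV and between 0.788 and 1.17 with RNAi. The log2 ratio was thus lower on average under RNAi by -0.43 and -0.52, with overlapping groups in both strains. An exact permutation test (two-sided) gave p = 0.200 for wild-type worms, where the smallest possible value is 0.100, and p = 0.0571 for polyQ35-YFP worms, where it is 0.0286. Over these 2 tests the adjusted values of the exact test were 0.200 and 0.114. With these group sizes neither adjusted value could pass 0.05, so the test does not settle whether both genes changed by the same factor.

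Around this pair, 14 other genes with values lay within 50 kb. In wild-type worms 5 of them were called, of which 2 fell, *C29F7.10* and *F02D10.6*, against 6.13% of all genes, and 3 rose, against 7.5%. The 3′ end of the first lies 1389 bases beyond the 5′ end of *fkh-4* on the same strand, and the gene changed by -1.37 (limma adjusted p = 5.68e-04) on the log2 scale. In polyQ35-YFP worms its change of -0.61 did not pass the test (limma adjusted p = 0.146). The other genes around the pair did not share one direction, since their fold changes ran from -1.06 for *C29F7.1*, which was not called, to 2.39 for *col-183*, a collagen gene that rose in both strains (limma adjusted p = 0.00402 and 0.00877).

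**Figure D3:**
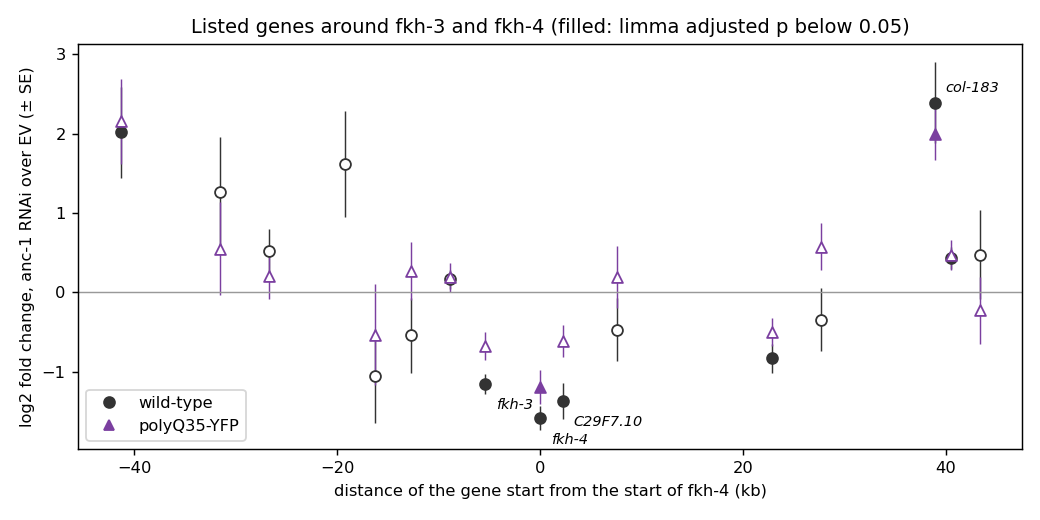
Log2 fold change (± SE) of *fkh-3*, *fkh-4* and the 14 other genes with values within 50 kb, against the distance of each gene's 5′ end from that of *fkh-4* in kb. Circles are wild-type and triangles polyQ35-YFP worms, and filled points passed a limma adjusted p of 0.05. In wild-type worms *fkh-3*, *fkh-4* and *C29F7.10* stand next to each other below -1, and genes farther away lie on both sides of 0.

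In the deviations of each sample from the mean of its strain, over 14 samples and 9263 genes, the profile of *fkh-4* was most like those of *egl-18*, a GATA factor of the epidermis (Pearson r = 0.989), *vet-2* (r = 0.985) and *tbx-38*, a T-box factor of the early embryo (r = 0.984). Its r with *fkh-3* was 0.941 and with *fkh-7* 0.853. The profile of *fkh-3* was most like *F56D5.5* (r = 0.971), *W06D11.2* (r = 0.969) and *F17A2.13* (r = 0.965). For *fkh-7* the closest genes were *pmk-1*, a p38 kinase of innate immunity (r = 0.956), *dsl-1*, a gene of the Notch ligand family (r = 0.954), and *kin-34* (r = 0.942). These values are descriptions, since all profiles share the treatment groups, the libraries and their depth.

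Genes used as markers of early embryos were read beside the 3 falling forkhead genes. Of 16 such genes, 10 were listed in wild-type worms. Of these, *tbx-37* and *tbx-38* fell, against 6.13% of all genes, and *sdz-1* rose, against 7.5%. In polyQ35-YFP worms 9 were listed, of which *tbx-37* and *tbx-38* fell, against 1.47%. The summed normalized count of the listed early embryo genes in wild-type worms was 1141 to 1434 in EV samples and 367 to 453 in treated samples. In polyQ35-YFP worms this sum ran from 820 to 1690 with EV and from 433 to 507 with RNAi. Nearly all of this difference was *tbx-38*, because without it the sums were 137 to 163 and 151 to 175 in wild-type worms, and 153 to 211 and 143 to 194 in polyQ35-YFP worms. The endoderm and mesoderm genes *end-1*, *med-1* and *med-2* were not listed in either strain. The early embryo genes *end-3* and *elt-7* were listed in both strains and called in neither. Their log2 fold changes were 0.64 and 0.72 in wild-type and -0.60 and 0.65 in polyQ35-YFP worms. Over the listed early embryo genes, 5 of 10 fold changes were negative in wild-type and 8 of 9 in polyQ35-YFP worms. Of 10 oocyte markers, 3 fell for wild-type and 2 for polyQ35-YFP worms, against 6.13% and 1.47% of all genes. All 10 had negative fold changes in wild-type worms, with a median of -0.23, and 4 of 10 in polyQ35-YFP worms, with a median of 0.03. The oocyte sum was lower without overlap in wild-type worms, 96636 to 120951 with EV and 81921 to 95979 with RNAi. In polyQ35-YFP worms it overlapped only through *anc-1* RNAi replicate 4 (109907). The remaining treated samples were at 80703 to 92468, below all EV samples (95137 to 148389). EV replicate 4, on which the calls of *fkh-3* and *fkh-7* depended, had the highest sum (148389). Among the oocyte markers in this strain, *perm-2* had the lowest fold change, with a mean of 36170 under EV and 20830 under RNAi. The part of embryo or oocyte RNA in the change of the forkhead genes was not tested.

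The gene called upwards in wild-type worms was *unc-130* (chromosome II, 11281986 to 11283954, plus strand). Its normalized read counts were 27.5, 20.0 and 16.04 under EV and 39.8, 43.5 and 37.0 under *anc-1* RNAi. Every treated sample was above every EV sample, at low counts. The mean was 21.2 ± 5.84 (SD, n = 3) under EV and 40.1 ± 3.26 (SD, n = 3) under RNAi. The log2 fold change was 0.92 (SE 0.28, limma adjusted p = 0.0379). The call was kept by edgeR (adjusted p = 0.0297) but not by DESeq2 (adjusted p = 0.0743), and only 1 of the 6 fits that left out a sample kept it, the one without EV replicate 1. Without the others the adjusted p from limma was between 0.0640 and 0.126.

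In polyQ35-YFP worms *unc-130* was 46.4, 32.0, 38.7 and 21.8 under EV and 33.8, 43.1, 18.4 and 24.8 under *anc-1* RNAi. The groups overlapped across most of their range, and the log2 fold change was -0.22 (SE 0.32, limma adjusted p = 0.806). The fold change in polyQ35-YFP minus that in wild-type worms was -1.14 (95% interval -2.06 to -0.22, limma unadjusted p = 0.0184, adjusted p = 0.999), so a difference between the strains was not shown after correction. The profiles most like *unc-130* over the 14 samples were those of *nmur-4*, a neuromedin receptor (r = 0.879), *C06E4.3* (r = 0.878) and *B0238.12* (r = 0.858).

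The gene that UNC-130 represses, *unc-129*, changed by -0.40 in wild-type (limma adjusted p = 0.152) and by -0.71 in polyQ35-YFP worms (limma adjusted p = 0.171), neither of which passed the test. The 4 axon guidance genes examined also include the netrin *unc-6* and its receptors *unc-5* and *unc-40*. Of these 4, limma called only *unc-40*, downwards and in wild-type worms, against 6.13% of all genes. With the replicate block, 2 of the 4 were called down in polyQ35-YFP worms, against 4.3% of all genes. The summed count of the 4 genes was lower in treated wild-type worms without overlap, 1036 to 1192 against 827 to 983. In polyQ35-YFP worms it was 1116 to 1586 against 994 to 1115, with almost no gap between EV replicate 4 and *anc-1* RNAi replicate 3.

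For *pha-4* (chromosome V, 20752936 to 20760303, plus strand) no change was called. In wild-type worms it was 30.97, 27.9 and 38.5 under EV and 78.4, 38.2 and 44.7 under *anc-1* RNAi. A single treated sample, replicate 1, stood high and the groups overlapped. Its log2 fold change was 0.65 (SE 0.28, 95% interval 0.06 to 1.24, limma adjusted p = 0.137). In polyQ35-YFP worms the counts were 28.98, 29.5, 40.95 and 31.9 under EV and 42.3, 40.8, 11.8 and 28.6 under *anc-1* RNAi. There *anc-1* RNAi replicate 3 stood low, and the log2 fold change of -0.22 (SE 0.36, limma adjusted p = 0.833) became 0.17 without it. Of 9 pharynx genes, 7 were listed. The troponin I gene *tni-4* was called, downwards, in wild-type worms (-0.58, limma adjusted p = 0.00379), against 6.13% of all genes. In polyQ35-YFP worms limma called 0, against 1.47% downwards and 0.772% upwards. With the replicate block it called 1 downwards there, against 4.3% of all genes. It also called 1 upwards, and the share of all genes upwards with the block is not given here. The summed count of the pharynx genes was lower in treated wild-type worms without overlap, 1235 to 1571 against 921 to 1209. Most of this sum was *tni-4*, with a mean of 1227 under EV and 823 under RNAi in wild-type worms. The median log2 fold change of the 7 listed genes was 0.29 in wild-type worms, where 3 of them had negative fold changes. The highest fold change among them was that of the troponin C gene *tnc-2*, 0.91 and 0.93, which passed the test in neither strain (limma adjusted p = 0.143 and 0.151).

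The gene *fkh-9* (X, 3816925 to 3826963, minus strand) acts in neurons in memory and in axon regeneration. In wild-type worms it was 171, 284 and 248 under EV and 286, 298 and 324 under *anc-1* RNAi. The treated samples were above the EV samples, by a very small gap between EV replicate 2 and *anc-1* RNAi replicate 1. The log2 fold change of 0.40 (SE 0.17) did not pass the test (limma adjusted p = 0.124). The polyQ35-YFP worms had 352, 256, 308 and 209 under EV and 337, 443, 338 and 236 under *anc-1* RNAi, with overlapping groups and a log2 fold change of 0.26 (SE 0.21, limma adjusted p = 0.620). The 95% intervals, 0.05 to 0.75 and -0.19 to 0.71, both end below 1 on the log2 scale.

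The gene *fkh-2* (X, 3740208 to 3742323, minus strand), which acts in the early embryo and in the cilia of sensory neurons, had few reads. In wild-type worms it was 1.15, 12.1 and 4.28 under EV and 15.9, 8.88 and 15.3 under *anc-1* RNAi, from 1 to 20 reads a sample. Of the treated samples, 2 were above all EV samples, and EV replicate 2 lay among the treated ones. The log2 fold change was 1.40 (SE 0.57, limma adjusted p = 0.117), and without EV replicate 2 it was 2.05 and was called (limma adjusted p = 0.0367). The polyQ35-YFP worms had 6.96, 23.2, 13.3 and 4.19 under EV and 5.64, 12.8, 5.27 and 14.3 under *anc-1* RNAi. Both groups covered much the same range, at a log2 fold change of -0.17 (SE 0.50, limma adjusted p = 0.910). Of the 14 genes of ciliated sensory neurons examined, 5 were listed for wild-type and 4 for polyQ35-YFP worms, and limma called 0 of them in either strain. DESeq2 called 0 of them as well. These genes had low counts, with group means from 1.02 to 12.8, so the lack of calls says little about them.

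The remaining listed members were *fkh-5* (III, 4844662 to 4846546, plus strand) and *fkh-10*, both with only general GO terms. In wild-type worms *fkh-5* was 26.4, 15.2 and 26.7 under EV and 7.96, 19.5 and 38.3 under *anc-1* RNAi. The treated samples spread wider than the EV samples and on both sides of them, at a log2 fold change of -0.25 (SE 0.44, limma adjusted p = 0.755). In polyQ35-YFP worms its counts were 22.03, 21.3, 24.4 and 13.4 under EV and 8.46, 10.5, 14.5 and 10.5 under *anc-1* RNAi. Here the treated samples were lower but for the overlap of EV replicate 4 with *anc-1* RNAi replicate 3, and the log2 fold change of -0.82 (SE 0.32) did not pass the test (limma adjusted p = 0.221).

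In wild-type worms *fkh-10* was 28.7, 23.0 and 17.1 under EV and 13.6, 22.2 and 28.1 under *anc-1* RNAi, with both groups over the same range (-0.13, SE 0.34, limma adjusted p = 0.844). In polyQ35-YFP worms its counts were 19.7, 26.96, 24.4 and 13.4 under EV and 16.9, 19.8, 13.2 and 10.5 under RNAi, again with overlap (-0.45, SE 0.32, limma adjusted p = 0.568). The annotated 3′ end of *fkh-10* shares 104 bases with the protein-coding gene *C25A1.1*, which is transcribed the other way. The use of strand in the counting is not given in the sources used here, so whether reads within these shared bases were told apart is not known. The other listed members overlap no other protein-coding gene.

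**Figure D4:**
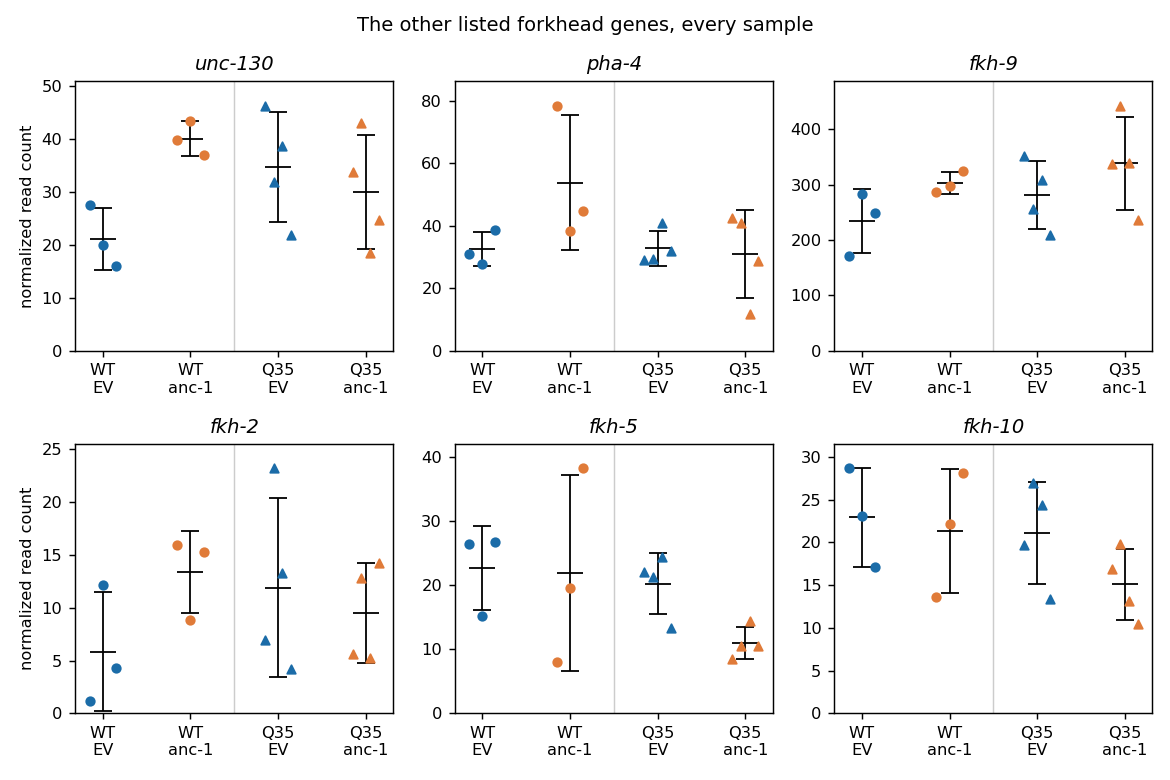
Normalized read counts (y axis, a separate scale for each gene) of *unc-130*, *pha-4*, *fkh-9*, *fkh-2*, *fkh-5* and *fkh-10* in every sample, with the mean and SD of each group. WT is wild-type (circles) and Q35 polyQ35-YFP (triangles), and the strains were normalized separately. In wild-type worms the treated samples of *unc-130* and *fkh-9* lie above the EV samples, and in the other panels and in polyQ35-YFP worms the groups overlap.

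The response of the forkhead genes was compared between the strains as the fold change in polyQ35-YFP minus that in wild-type worms, over the 11751 genes listed in both. Of the 9 members 0 differed by limma, edgeR or DESeq2, against 0.00851% of all genes by limma and by edgeR and 0.017% by DESeq2. At an unadjusted p below 0.05 there were 2 members, *unc-130* and *fkh-3*, against 3.46% of all genes. For *fkh-3* the difference was 0.48 (95% interval 0.01 to 0.96, limma unadjusted p = 0.0466, adjusted p = 0.999), a smaller decrease in polyQ35-YFP worms. For *fkh-4* it was 0.40 (95% interval -0.24 to 1.04) and for *fkh-7* -0.18 (95% interval -0.65 to 0.30), and both intervals include 0. The interval for *pha-4* was -1.93 to 0.19 and that for *fkh-2* was -3.32 to 0.17, so large differences between the strains were not detectable as such in these genes. Strain and any batch cannot be told apart, and levels were not compared between the strains.

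Of the 5 forkhead genes outside the set that had values, limma called 0 in either strain, and so did edgeR. The limma shares of all genes were 6.13% down and 7.5% up in wild-type worms, and 1.47% and 0.772% in polyQ35-YFP worms. DESeq2 also called 0, but it gave no adjusted p for *let-381* in either strain or for *fkh-6* in polyQ35-YFP worms. The FoxO gene *daf-16*, the effector of insulin signalling, had 1348 to 1697 normalized counts in wild-type EV samples and 1426 to 1558 in the treated ones (-0.07, SE 0.11, limma adjusted p = 0.706). In polyQ35-YFP worms its log2 fold change was -0.08 (SE 0.13, limma adjusted p = 0.830). The 95% intervals of -0.30 to 0.15 and -0.37 to 0.20 bound the change of its RNA. The fold changes of *lin-31*, a gene of vulval development, were -0.29 and -0.07, and those of *pes-1*, an embryonic gene, 0.23 and -0.07, with overlapping groups throughout.

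The gonad gene *fkh-6* was 3.44, 2.42 and 2.14 under EV and 10.2, 6.21 and 12.8 under *anc-1* RNAi in wild-type worms. The groups did not overlap, on 2 to 10 reads a sample, and the log2 fold change of 1.52 (SE 0.51) did not pass the test (limma adjusted p = 0.0554). It did so with a pseudocount of 5 (limma adjusted p = 0.0425) and without the variance trend (limma adjusted p = 0.0466). Its fold change in polyQ35-YFP worms was 1.17 (SE 0.59, limma adjusted p = 0.368). For *let-381*, a gene of mesoderm fate with at most 7 reads a sample, the fold changes of 1.47 and 0.22 passed in neither strain (limma adjusted p = 0.182 and 0.876). Its wild-type groups did not overlap, at 0 to 1.21 under EV and 2.27 to 5.33 under RNAi. Thus 2 of the 5 genes were higher without overlap in wild-type worms, against 15.8% of all genes, and 0 in polyQ35-YFP worms, against 3.39%.

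Among markers of differentiated tissue, the 5 body wall muscle genes summed to higher counts under *anc-1* RNAi in both strains. The sums were 5031 to 5347 against 6348 to 7752 in wild-type and 35586 to 46848 against 58067 to 81775 in polyQ35-YFP worms. In each strain 3 of the 5 genes were called upwards, against 7.5% and 0.772% of all genes. They include *unc-54*, whose promoter drives the polyQ35-YFP transgene, and whether transgene reads were counted as *unc-54* was not tested. The 5 intestine genes also summed to higher counts, 1123 to 1314 against 1673 to 2337 in wild-type and 1118 to 1441 against 1754 to 2387 in polyQ35-YFP worms. Of these genes 2 and 1 were called upwards, against 7.5% and 0.772% of all genes. The summed count of the 10 neuron markers, 9 of which were listed in wild-type worms, overlapped between the groups in both strains. That of the epidermis markers was higher in treated wild-type worms without overlap, 628 to 743 against 848 to 913, and overlapped in polyQ35-YFP worms. The share of these tissues in the levels of the forkhead genes was not tested. Of the superoxide dismutase genes and *smk-1*, a cofactor of the life span roles of DAF-16 and PHA-4, 5 were listed and 0 were called by limma or DESeq2 in either strain.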

How the data were processed

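RNA of whole worms was sequenced with CEL-Seq2, which reads the 3′ end of polyadenylated transcripts, in 14 samples. Per the paper's methods and the submitters' processing notes, the authors trimmed reads with cutadapt 1.12, aligned them with TopHat2 2.1.1 to WBcel235, ran HTSeq-count 0.6.1 over protein-coding genes, leaving molecular identifiers aside, and discarded genes with a mean under 2. The deposited signal values are these counts divided by a DESeq2 1.22.2 size factor, in a table per strain. The deposited fold changes, statistics and p-values, which are the authors' own comparison, were not used. All values (100%) were whole reads within 0.01 once divided by the value of 1 read. For wild-type worms, 8 gene names turned into dates were read by identifier.

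The members, gene lists and tests were chosen with earlier results of these data known. The main test was limma 3.58.1 (R 4.3.3) on log2(value + 1) with a variance trend, fitted per strain over all genes without a replicate term, two-sided, with Benjamini-Hochberg adjustment over all genes. The p-values measure only the spread between these samples. The response of the strains was compared as an interaction in a fit of all 14 samples. Alternatives were a replicate block, pseudocounts of 0.5 and 5, a mean of at least 10, library-size scaling, no variance trend, the recovered reads in edgeR 4.0.16 and in DESeq2 1.42.0, and each sample left out. The fit without both polyQ35-YFP samples numbered 4 was added after seeing the data. The test was checked on simulated counts of independent samples, with the same spread setting for all genes. That simulation held no replicate pairs and no outlying samples, so it does not speak to them. All members were named. Likeness took the 3 genes of highest Pearson r among genes with a mean of at least 10 in both strains, and *C29F7.10*, *F02D10.6*, *C29F7.1* and *col-183* were named for their position near *fkh-4* or their values. From the other gene lists, which were written from general knowledge, counts and the members with the lowest or highest fold change were given. Markers of sperm and epidermis were also read, and of 7 sperm genes 2 were listed and 0 called by limma or DESeq2. Of 5 epidermis genes 1 fell and 1 rose in wild-type worms, against 6.13% and 7.5% of all genes. In polyQ35-YFP worms 0 epidermis genes were called by limma or DESeq2.

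The series' design describes each repeat as holding EV and RNAi together. Equal numbers within a strain were therefore read as pairs in the replicate block, which was an alternative. The main test did not use the pairs. Their deviations from the group means correlated at 0.0491, 0.0806 and 0.0740 in wild-type and at 0.215, 0.0949, 0.122 and 0.570 in polyQ35-YFP worms. Unequal numbers gave -0.108 to 0.0353 and -0.469 to 0.271, so the closest sample did not always carry the same number. Levels were not compared between strains, since the tables were normalized separately.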

Additional observations from a re-analysis of the deposited data

How the results depend on the processing

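The 3 decreases in wild-type worms were called under every alternative but the fit without a variance trend, which kept 2, and leaving out 1 sample gave 2 to 3. The 1 increase in wild-type worms, *unc-130*, went to 0 without a variance trend and with DESeq2, and leaving out 1 sample gave 0 to 1. The 1 gene called upwards was *unc-130* without EV replicate 1 but *fkh-2* without EV replicate 2. The 1 decrease in polyQ35-YFP worms became 3 with the replicate block, with DESeq2 and without both samples numbered 4, and 0 without a variance trend, and leaving out 1 sample gave 0 to 3. The block changed no other call of a forkhead gene. No alternative called a member upwards in polyQ35-YFP worms or as different between the strains. The causes were not tested. The sign turned only for genes that were not called. Leaving out 1 sample, log2 fold changes lay from -0.53 to 0.21 for *fkh-2* and from -0.41 to 0.17 for *pha-4* in polyQ35-YFP worms, from -0.77 to 0.30 for *fkh-5* and from -0.35 to 0.15 for *fkh-10* in wild-type worms, and from -0.29 to 0.070 for the strain difference of *fkh-9*. They lay from -0.79 to 0.26 and from -0.35 to 0.29 for *lin-31*, and from -0.32 to 0.55 and from -0.28 to 0.23 for *pes-1*, in wild-type and polyQ35-YFP worms, and *pes-1* was at 0.20 without both samples numbered 4. With a mean of at least 10, *fkh-2* was not among the genes of wild-type worms. Counts limit *fkh-2*, *fkh-6* and *let-381* most, with as few as 0 to 2 reads in a sample.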
